A study of Mus musculus with 8 samples.

Results

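The genes described here are 34 genes of fatty acid uptake and oxidation, taken by symbol from a table of 14578 genes measured in the left ventricle. They are 8 genes of uptake and transport, 17 enzymes of beta-oxidation and 9 genes counted among the targets of the peroxisome proliferator-activated receptors (PPARs). All 34 are in the table and all 34 passed the filter on low values, as 13783 genes did. RNA was sequenced from mice of 6 months in a C57 background, with 2 wild-type (WT) libraries, 3 mdx libraries and 3 mdx sln+/- libraries. The mdx mice lack dystrophin, the protein that links the muscle cytoskeleton to the cell membrane, and the mdx sln+/- mice carry the same defect and only 1 functional copy of Sln. Sln encodes sarcolipin, a small inhibitor of the calcium pump of the sarcoplasmic reticulum. The genotypes are germline and affect every cell. No treatment is described in the labels, but the mdx sln+/- libraries carry titles with TRT2 and source names with Treat2. Their genotype label is mdx sln+/-. The labels do not say whether the libraries of a group came from separate animals, so the p-values measure the spread between these libraries. The design asks which pathways go with the cardiac disease of the mdx mouse and how the loss of a Sln allele alters them.

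The adult heart takes most of its energy from long-chain fatty acids. They are released from lipoproteins by lipoprotein lipase, enter the cell through CD36, are bound by FABP3 and are activated to acyl-CoA by ACSL1. The carnitine shuttle, made of CPT1, the carrier SLC25A20 and CPT2, brings them into the mitochondrial matrix, where each turn of beta-oxidation shortens the chain and passes electrons through the electron transfer flavoprotein to the respiratory chain. PPAR-alpha with its coactivator PGC-1alpha is a known activator of many of these genes in the heart and binds, with the retinoid X receptor, to repeats of AGGTCA with 1 base between them.

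Promoter sequences are shown for the 4 members that were lower in both mdx-bearing groups than in WT by the tests given further on. RefSeq windows (GRCm38.p6, 300 bases, from 250 before to 50 after a gene's start) matched 28 of the 34 members by symbol, all but Acaa2, Acot13, Angptl4, Cpt1b, Decr1 and Lpl. The stretch before the start is printed up to the first base of a GENCODE exon of the gene, 5′ to 3′ on the gene's strand. Capitals mark AGGTCA on either strand and any repeat AGGTCANAGGTCA with at most 2 mismatches. Distances are counted from the RefSeq start, which can lie a little inside the first GENCODE exon. The stretches lie at chr19:3323051-3323284 (+) for Cpt1a, chr7:100472741-100472989 (+) for Ucp3, chr7:100493108-100493336 (+) for Ucp2 and chr17:56117597-56117798 (-) for Plin5.
Cpt1a: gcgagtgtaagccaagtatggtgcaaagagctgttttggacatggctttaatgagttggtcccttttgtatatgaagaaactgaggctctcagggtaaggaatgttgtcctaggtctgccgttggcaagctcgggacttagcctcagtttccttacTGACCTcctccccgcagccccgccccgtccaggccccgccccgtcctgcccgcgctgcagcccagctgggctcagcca
Ucp3: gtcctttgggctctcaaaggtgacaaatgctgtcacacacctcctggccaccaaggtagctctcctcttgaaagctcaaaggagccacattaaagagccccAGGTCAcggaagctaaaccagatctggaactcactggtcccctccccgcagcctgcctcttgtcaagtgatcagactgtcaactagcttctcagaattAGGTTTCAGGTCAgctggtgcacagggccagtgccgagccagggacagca
Ucp2: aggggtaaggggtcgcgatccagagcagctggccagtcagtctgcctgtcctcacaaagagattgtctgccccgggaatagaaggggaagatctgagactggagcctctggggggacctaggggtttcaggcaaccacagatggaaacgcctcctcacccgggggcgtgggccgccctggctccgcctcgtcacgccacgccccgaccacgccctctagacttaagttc
Plin5: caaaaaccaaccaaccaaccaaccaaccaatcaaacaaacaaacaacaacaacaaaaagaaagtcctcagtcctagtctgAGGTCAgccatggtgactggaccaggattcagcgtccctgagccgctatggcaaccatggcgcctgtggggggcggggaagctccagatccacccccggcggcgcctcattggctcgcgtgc
The Cpt1a stretch ends at the base before Cpt1a-201, the transcript measured here; it lies inside the GENCODE span of the gene, in an intron of Cpt1a-206, which starts further upstream. It holds AGGTCA on the other strand, 89 to 94 bases before the RefSeq start. Ucp3 has the motif 144 to 149 bases before the start and again 39 to 44 bases before it, and the second of these is the end of a repeat with 2 mismatches that begins 51 bases before the start. In Plin5 it lies 165 to 170 bases before the RefSeq start, and the printed Ucp2 stretch does not hold these letters. Among all 32851 windows of this length 16.3% held AGGTCA on either strand and 3.86% held the repeat with at most 2 mismatches. Of the 30 windows of the members, 8 held AGGTCA and 5 held such a repeat, namely those of Cd36, Echs1, Etfa, Slc25a20 and Ucp3. The exact repeat was in 0.04% of all windows and in 0 windows of the members. TCAAGGTCA, the extended motif of the oestrogen-related receptors, was in 0.42% of all windows and 0 of the members'. A match describes the letters and is no evidence of binding.

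The deposited values are log2 abundances per transcript, and a gene's level is here the log2 of its summed abundance plus 1. Abundances of a library summed to between 780262 and 924253. The sources used here do not say whether transcript length was divided out, so levels are compared between libraries and not between genes. No counts were used, and the depth is unknown. A contrast that sets mdx 2 and mdx sln+/- 2 against the other mdx-bearing libraries had been removed from the values before deposit, and the fit carries a term for it. Library names differ in style. Both WT libraries, mdx 3 and mdx sln+/- 3 have plain names, and the other mdx-bearing libraries have names with an index. Name style is thus partly confounded with the differences from WT, and the main fit has no term for it. Dmd, the gene mutated in mdx, stood at 6.60 and 6.98 in WT, at 4.22 to 4.32 in mdx and at 4.09 to 4.25 in mdx sln+/-, in the order of the labels. Y-linked genes set libraries of the same group apart: Ddx3y stood at 6.64 in WT 1 and 1.29 in WT 2, and at 1.76 in mdx sln+/- 3, with 3.94 to 6.37 in the other 5 libraries. The sum of 12 cardiomyocyte markers lay at 15.95 to 15.98 in WT, 15.94 to 16.06 in mdx and 15.99 to 16.07 in mdx sln+/-, and 0 of the 12 passed the test in any comparison. Macrophage markers summed to 8.05 to 8.10 in WT, 8.36 to 8.70 in mdx and 8.40 to 8.67 in mdx sln+/-, with 3 of 12 higher in each comparison with WT. Fibroblast markers summed to 9.57 to 9.84, 9.93 to 10.35 and 9.99 to 10.16 in the same order, with 2 of 10 higher. Of 10 endothelial markers 2 were higher and 1 lower in mdx and 2 were higher in mdx sln+/-, and 2 of 8 markers of smooth muscle and pericytes were higher in mdx and 0 in mdx sln+/-. Of 9 adipocyte markers 3 were measured, and Adipoq and Plin1, which define fat cells, are not analysed here. The 4 measured of 6 brown adipocyte markers summed to 7.63 to 8.34 in WT, 6.63 to 6.82 in mdx and 6.78 to 6.97 in mdx sln+/-. Ppargc1a, whose levels are given further on, made up most of this sum in WT. It was the 1 of them that passed as lower in both comparisons with WT. Another of the 4 passed as higher in mdx (0.45) but not in mdx sln+/-. Atrial markers, 3 measured of 6, summed to 7.92 to 8.61 in WT, 9.01 to 9.46 in mdx and 8.95 to 9.40 in mdx sln+/-, with 2 of 3 higher in mdx and 0 called in mdx sln+/-. The remaining atrial marker was lower in every mdx library than in both WT libraries (-0.83) but did not pass. Beside these counts of markers, 8.15% of all genes were called higher and 6.94% lower in mdx against WT. In mdx sln+/- against WT 9.41% were called higher and 6.5% lower. In such bulk tissue, fewer cells of a type and less RNA per cell cannot be told apart. The part of these marker shifts in the results was not tested.

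Of the 34 members 6 fell in mdx against WT and 0 rose by limma's moderated test, with an adjusted p under 0.05 over all 13783 genes. They were Cpt1a, which encodes an enzyme of the carnitine shuttle, Acadsb, an acyl-CoA dehydrogenase, and the PPAR-target genes Pdk4, a kinase of pyruvate dehydrogenase, Ucp2 and Ucp3, mitochondrial carriers, and Plin5, a lipid droplet protein. The other 16 of 17 beta-oxidation enzymes and 7 of 8 genes of uptake and transport did not pass. That is 17.6% of the members, against 6.94% of all genes called lower, 8.15% called higher and 15.1% called in either direction. Against WT, mdx sln+/- had 4 members that fell (Cpt1a, Ucp2, Ucp3 and Plin5) and 0 rose, 11.8% beside 6.5% of all genes called lower, 9.41% higher and 15.9% either way. Both comparisons use the same WT libraries. The median log2 fold change over the members was -0.09 in mdx against WT, with 22 of 34 below 0, beside 0.02 and 46.9% below 0 for all genes. For mdx sln+/- it was -0.11, with 23 of 34 below 0, beside 0.05 and 42.2% for all genes. In 13 of 34 members every mdx library lay below both WT libraries, where 23.6% of all genes did so. For mdx sln+/- this number was also 13, beside 23.5% of all genes. The counts changed when single libraries were left out. Without WT 1, Acot1, Acot2 and Eci1 newly passed in mdx against WT, and Pdk4 no longer did. In mdx sln+/- against WT, Acot1 and Acot2 newly passed without WT 1, and Ucp2 no longer did. Some other libraries, when left out, made the counts smaller. Without WT 2, 2 members fell in each comparison. Without mdx 1 the count in mdx against WT was 3. Without mdx sln+/- 1 it was 3 in mdx against WT and 2 in mdx sln+/- against WT, and without mdx sln+/- 3 it was 2 in the latter. Without WT 2 and mdx sln+/- 3, the libraries low in Y-linked genes, Cpt1a and Ucp3 were still called in mdx against WT and 0 members in mdx sln+/- against WT. With groups alone in the model, and the removed contrast not fitted, the calls were 10 (1 higher) and 10 (2 higher). The share of all genes called in these settings is not given here, so these changes cannot be read as particular to the members.

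**Figure D1:**
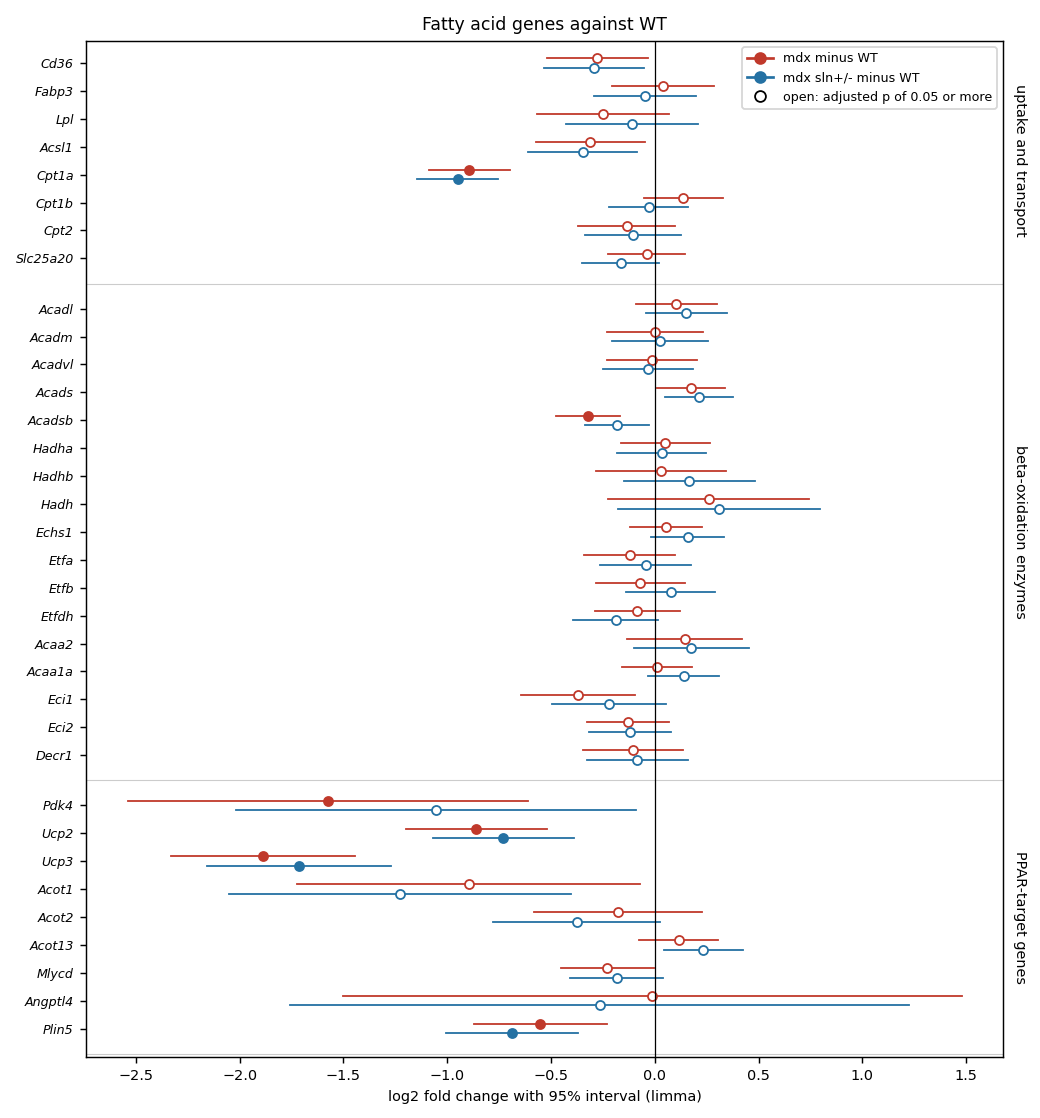
Log2 fold changes of the 34 fatty acid genes, mdx minus WT in red and mdx sln+/- minus WT in blue, on the x axis, with 1 gene per line on the y axis and bars for the 95% interval of the limma fit. Filled points have an adjusted p under 0.05: 6 in mdx and 4 in mdx sln+/-, all to the left of 0, while the intervals of 14 of the 17 beta-oxidation enzymes include 0 in mdx minus WT.

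Cpt1a fell furthest among the genes of uptake and transport. It encodes the liver-type carnitine palmitoyltransferase of the outer mitochondrial membrane, the isoform of lower abundance in adult heart, and lies at chr19:3322334-3385733 (+). Its level was 5.72 and 5.90 in WT, 4.90, 4.97 and 4.88 in mdx, and 4.89, 4.81 and 4.88 in mdx sln+/-. The 6 mdx-bearing libraries lay close together and all below both WT libraries. Cpt1a fell by 0.89 ± 0.08 in mdx (log2, limma SE, adjusted p = 0.0024), or 1.86-fold, and by 0.95 ± 0.08 in mdx sln+/- (adjusted p = 0.0020), or 1.93-fold. Leaving out any 1 library did not end either call. The call in mdx sln+/- was lost without WT 2 and mdx sln+/- 3 together (-0.87, adjusted p = 0.057), and that in mdx with only the plain-named libraries, whose names carry no index (-0.93, adjusted p = 0.059).

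Cpt1b, the muscle-type isoform at the same step, did not pass the test in either comparison with WT. Its level was 9.00 and 9.17 in WT, 9.24, 9.25 and 9.19 in mdx, and 9.06, 9.03 and 9.08 in mdx sln+/-. All 3 mdx libraries were above both WT libraries, by a margin smaller than the gap between WT 1 and WT 2. The difference was 0.14 ± 0.08 in mdx against WT (adjusted p = 0.28) and -0.03 ± 0.08 in mdx sln+/- against WT (adjusted p = 0.83). Within a library, the log2 level of Cpt1b less that of Cpt1a was 3.28 and 3.27 in WT, 4.28 to 4.33 in mdx and 4.17 to 4.22 in mdx sln+/-, so the gap between the isoforms was wider in every mdx-bearing library than in WT. As the scale per transcript length is not known, this gap is no ratio of molecules, and only its change between libraries can be read. Cpt1b overlaps Gm44502 on the same strand, and reads of the overlap could count for either.

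The other 6 genes of uptake and transport did not pass the test in any comparison. Cd36, the membrane transporter of long-chain fatty acids, stood at 10.56 and 10.69 in WT, 10.22, 10.36 and 10.46 in mdx, and 10.34, 10.32 and 10.33 in mdx sln+/-. All 6 mdx-bearing libraries lay below both WT libraries. Its differences from WT were -0.28 ± 0.10 (adjusted p = 0.11) and -0.29 ± 0.10 (adjusted p = 0.095). Acsl1, the long-chain acyl-CoA synthetase of the heart, showed the same layout, with differences of -0.31 ± 0.11 (adjusted p = 0.11) and -0.35 ± 0.11 (adjusted p = 0.076). Lpl, lipoprotein lipase, differed by -0.25 ± 0.14 in mdx and -0.11 ± 0.14 in mdx sln+/-, and mdx 1 at 11.77 was its lowest library. Fabp3, the cytosolic fatty acid carrier of heart muscle, differed by 0.04 in mdx (95% interval -0.21 to 0.28) and by -0.05 in mdx sln+/- (-0.29 to 0.20). For the rest of the carnitine shuttle, Slc25a20 differed by -0.04 and -0.16 and Cpt2 by -0.14 and -0.10, with adjusted p from 0.19 to 0.76. Fabp3 has genes on the other strand within its span, and whether counting used strand is not given.

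**Figure D2:**
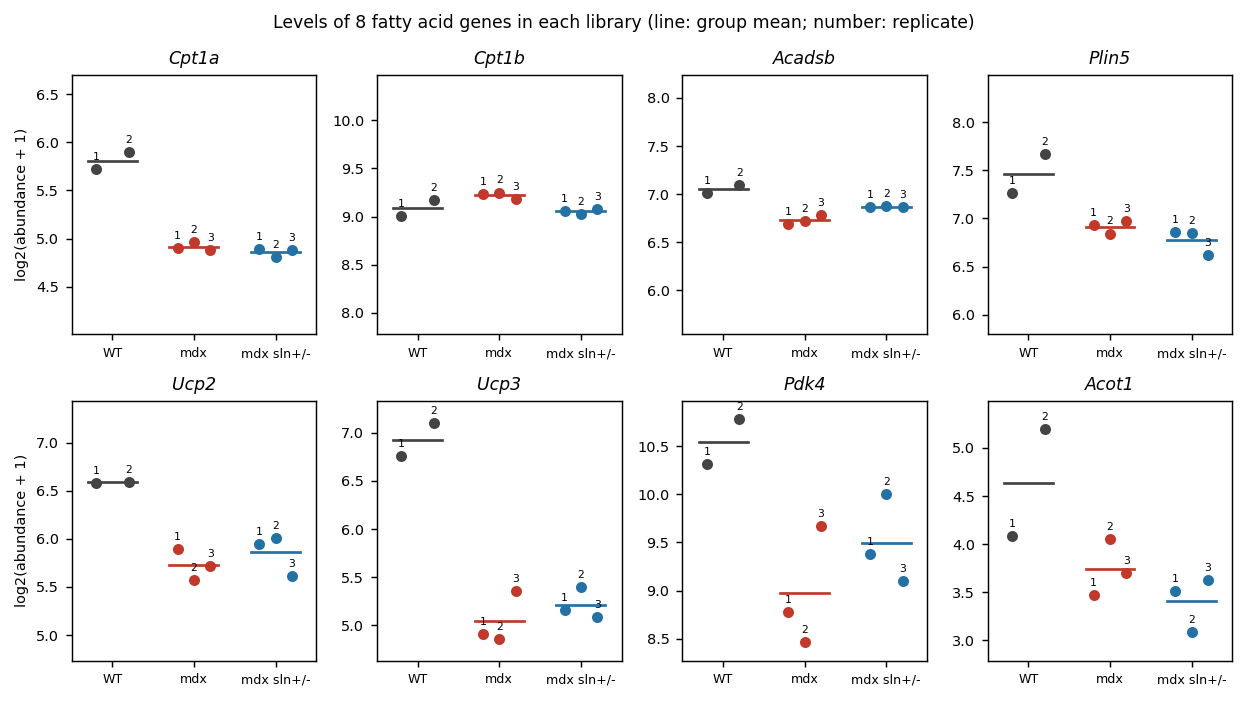
Levels of 8 fatty acid genes, log2(abundance + 1) on the y axis, in each library of the 3 genotypes on the x axis; points are libraries numbered by replicate, lines are group means, and all panels span the same number of log2 units. Cpt1a, Ucp2, Ucp3 and Plin5 are lower in all 6 mdx-bearing libraries than in both WT libraries, Cpt1b is not, and Acot1 differs by 1.11 between the WT libraries.

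Of the 17 enzymes of beta-oxidation 1 fell in mdx against WT, 5.9% beside 6.94% of all genes called lower. In mdx sln+/- against WT 0 passed, beside 15.9% of all genes called in either direction. The log2 fold changes of the enzymes ran from -0.37 to 0.26 in mdx with a median of 0.00. In mdx sln+/- they ran from -0.22 to 0.31 with a median of 0.03. The acyl-CoA dehydrogenases, which carry out the initial oxidation of each cycle and differ in the chain length they take, gave -0.01 for Acadvl (very long), 0.10 for Acadl (long), 0.00 for Acadm (medium) and 0.18 for Acads (short) in mdx against WT. The trifunctional protein of the inner membrane is encoded by Hadha and Hadhb, which stand head to head on chromosome 5 with 85 bases between them, and their differences were 0.05 ± 0.09 and 0.03 ± 0.13. Echs1, the enoyl-CoA hydratase, differed by 0.06, Acaa2, the mitochondrial thiolase, by 0.14, and Acaa1a, a peroxisomal thiolase, by 0.01. The 95% interval of Acadvl was -0.23 to 0.20, that of Acadm -0.23 to 0.23 and that of Hadha -0.16 to 0.26, which bounds changes at these steps without showing that there were none. Hadh, the short-chain 3-hydroxyacyl-CoA dehydrogenase, was the least settled of the enzymes, at 9.19 in WT 1 and 8.51 in WT 2, with 8.89 to 9.26 in mdx and 9.09 to 9.21 in mdx sln+/-. WT 2 alone was low, and the difference of 0.26 ± 0.21 in mdx had an adjusted p of 0.43.

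The auxiliary enzymes and the electron acceptors did not pass the test either. Eci1, an isomerase needed for unsaturated fatty acids, stood at 7.69 in WT 1 and 0.31 above that in WT 2, at 7.35, 7.55 and 7.53 in mdx, and at 7.65, 7.55 and 7.68 in mdx sln+/-. The mdx-bearing libraries were all below WT 1, though mdx sln+/- 3 by little, and the difference of -0.37 ± 0.12 in mdx had an adjusted p of 0.075, and of 0.040 without WT 1. Eci2 and Decr1, which handle double bonds as well, differed by -0.13 and -0.10. Etfa and Etfb, the 2 subunits of the electron transfer flavoprotein, differed by -0.12 and -0.07, and Etfdh, which passes its electrons to ubiquinone, by -0.08.

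Acadsb was the enzyme that fell. It encodes a dehydrogenase of short and branched acyl-CoA esters that is known chiefly for the breakdown of isoleucine, and lies at chr7:131410601-131448944 (+). Its level was 7.02 and 7.09 in WT, 6.69, 6.72 and 6.78 in mdx, and 6.87, 6.88 and 6.87 in mdx sln+/-. The mdx libraries were the lowest, the mdx sln+/- libraries lay between mdx and WT, and no groups overlapped. Acadsb fell by 0.32 ± 0.07 in mdx (adjusted p = 0.021), a 1.25-fold decrease. The difference between mdx sln+/- and WT was -0.18 ± 0.07 (adjusted p = 0.099, and 0.045 with median-ratio scaling), and that from mdx was 0.14 ± 0.06 (unadjusted p = 0.041, adjusted p = 0.58). The call in mdx was lost without WT 2 (adjusted p = 0.091), mdx 1 (0.057), mdx sln+/- 1 (0.066) or mdx sln+/- 3 (0.050). It was lost too when the transcript with the highest mean stood for the gene (-0.27, adjusted p = 0.064). That transcript, Acadsb-207, is annotated as a retained intron and made up 71.4% of the gene in WT. With coding transcripts only, the difference in mdx was -0.42 (adjusted p = 0.020). The coding transcript Acadsb-202, with 5.97% of the gene in WT, fell by 0.64 ± 0.13 in mdx (adjusted p = 0.027). Acadsb overlaps Fgfr2 on the other strand and Gm44982 on the same strand.

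The PPAR-target genes held 4 of the 6 members that fell in mdx, out of 9 in that group. That was 44.4% of the 9, beside 6.94% of all genes called lower. Against WT, 3 of the 9 fell in mdx sln+/-, 33.3% beside 6.5% of all genes. The median log2 fold change of the 9 was -0.55 in mdx and -0.69 in mdx sln+/-. Ucp3, a carrier of the inner mitochondrial membrane that rises with fatty acid supply in muscle, showed the largest difference of the 34 members in both comparisons with WT. It lies at chr7:100472990-100486432 (+), and 6904 bases separate it from its relative Ucp2 with no annotated gene between them. The level of Ucp3 was 6.76 and 7.10 in WT, 4.91, 4.86 and 5.36 in mdx, and 5.16, 5.39 and 5.09 in mdx sln+/-. All 6 mdx-bearing libraries lay more than 1 log2 unit below the lower WT library. Ucp3 fell by 1.89 ± 0.19 in mdx (adjusted p = 0.0031), or 3.70-fold, and by 1.72 ± 0.19 in mdx sln+/- (adjusted p = 0.0042), or 3.29-fold. The call in mdx held under all 25 alternatives, and that in mdx sln+/- under 24 of 25, being lost without WT 2 and mdx sln+/- 3 (-1.46, adjusted p = 0.085). Ucp3 overlaps the antisense gene Gm10603.

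Ucp2, the more widely expressed relative of Ucp3 at chr7:100493337-100502020 (+), stood at 6.58 and 6.59 in WT, 5.89, 5.57 and 5.72 in mdx, and 5.95, 6.01 and 5.62 in mdx sln+/-. The WT libraries were nearly equal and above all others. Ucp2 fell by 0.86 ± 0.14 in mdx (adjusted p = 0.013), or 1.81-fold, and by 0.73 ± 0.14 in mdx sln+/- (adjusted p = 0.019), or 1.66-fold. The call in mdx was lost without WT 2 (adjusted p = 0.064). That in mdx sln+/- was lost without WT 1 (0.059), WT 2 (0.087), mdx sln+/- 1 (0.066) or mdx sln+/- 3 (0.052). The log2 level of Ucp3 less that of Ucp2 was 0.17 and 0.51 in WT, -0.99, -0.71 and -0.36 in mdx, and -0.79, -0.62 and -0.53 in mdx sln+/-, so it was higher in both WT libraries than in every mdx-bearing library. Ucp2 is also a gene of macrophages, of whose 12 markers 3 passed as higher in each comparison with WT; their part in the values of Ucp2 was not tested. It overlaps Dnajb13 on the other strand.

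Pdk4 encodes the kinase that shuts off pyruvate dehydrogenase and so spares glucose when fat is burnt, and lies at chr6:5483351-5496309 (-). Its level was 10.32 and 10.78 in WT, 8.78, 8.46 and 9.67 in mdx, and 9.38, 10.00 and 9.10 in mdx sln+/-. No mdx-bearing library reached the WT levels, but the libraries within each mdx group were spread over about 1 log2 unit, with mdx 3 and mdx sln+/- 2 the highest. Pdk4 fell by 1.57 ± 0.41 in mdx (adjusted p = 0.044), or 2.98-fold. The difference of -1.05 ± 0.41 in mdx sln+/- did not pass (adjusted p = 0.12). It passed without mdx 3 (-1.15, adjusted p = 0.044), without mdx 2 or mdx sln+/- 2 (-1.31, 0.041 each) and with only the groups compared (-1.31, 0.020). The value of -1.31 is the same estimate each time, as mdx sln+/- 2 then has no part in it. With plain-named libraries only, which leave 1 library in each mdx group, the difference was -1.45. The call in mdx was lost without WT 1 (0.082), WT 2 (0.189), mdx 1 (0.140), mdx sln+/- 1 (0.080) or mdx sln+/- 3 (0.056), each an adjusted p, and in 11 of 25 alternatives in all.

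Plin5 coats lipid droplets in oxidative tissue and ties them to mitochondria, and lies at chr17:56111601-56117596 (-). Its level was 7.27 and 7.66 in WT, 6.93, 6.84 and 6.97 in mdx, and 6.86, 6.85 and 6.62 in mdx sln+/-. The mdx-bearing libraries were all below WT 1, the lower of the WT libraries. Plin5 fell by 0.55 ± 0.14 in mdx (adjusted p = 0.037), or 1.47-fold, and by 0.69 ± 0.14 in mdx sln+/- (adjusted p = 0.019), or 1.61-fold. The call in mdx was lost without WT 2 (-0.35, adjusted p = 0.146) or any of mdx 1, mdx 2, mdx 3, mdx sln+/- 1 and mdx sln+/- 2 (adjusted p = 0.065 to 0.101); without either replicate 2 the term fits the other one exactly, so both drop out. That in mdx sln+/- was lost without WT 2 (0.075), mdx sln+/- 1 (0.067) or mdx sln+/- 3 (0.074).

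The other 5 PPAR-target genes did not pass. Acot1, a cytosolic thioesterase that splits acyl-CoA, stood at 4.08 and 5.19 in WT, 3.47, 4.05 and 3.70 in mdx, and 3.52, 3.08 and 3.63 in mdx sln+/-. The gap between WT 1 and WT 2 was 1.11, the widest of the 34 members, and all mdx-bearing libraries were below WT 1. Its differences were -0.90 ± 0.35 in mdx (adjusted p = 0.13) and -1.23 ± 0.35 in mdx sln+/- (adjusted p = 0.055). Acot2, its mitochondrial relative 15616 bases away on chromosome 12, stood at 5.89 and 6.50 in WT, 6.02, 5.93 and 6.09 in mdx, and 5.77, 5.90 and 5.78 in mdx sln+/-. Both mdx-bearing groups overlapped with WT, and the differences were -0.18 ± 0.17 and -0.38 ± 0.17, while all mdx sln+/- libraries lay below all mdx libraries, a difference of -0.20 ± 0.15 that did not pass (adjusted p = 0.72). Without WT 1, which was the lower WT library of both genes, Acot1 and Acot2 passed the test in both comparisons (adjusted p = 0.018 to 0.038). Acot1 and Acot2 are near-identical copies, so the authors' counting could have split their reads, and the values of both are uncertain. Mlycd, malonyl-CoA decarboxylase, which removes the inhibitor of CPT1, differed by -0.23 ± 0.10 and -0.18 ± 0.10. Acot13, another thioesterase, differed by 0.12 ± 0.08 and 0.23 ± 0.08, and the latter passed without mdx 1 (adjusted p = 0.042). Angptl4, a secreted inhibitor of lipoprotein lipase, stood at 3.72 and 4.13 in WT, 4.11, 2.91 and 4.70 in mdx, and 3.29, 4.63 and 3.05 in mdx sln+/-. Its libraries differed by more within each mdx group than the groups did, and its 95% interval of -1.50 to 1.48 in mdx leaves a change in either direction possible.

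The comparison of mdx sln+/- with mdx asks what the loss of a Sln allele changes on the dystrophic background. Of the 34 members 0 were called in it, and 0% of all genes were called, by limma with the removed contrast fitted and also with groups alone. At an unadjusted p under 0.05 there were 2 members, Cpt1b (-0.17 ± 0.07, adjusted p = 0.58) and Acadsb (0.14 ± 0.06), chosen for that p, and 1186 of all genes. The log2 fold changes of the members ran from -0.33 (Acot1) to 0.52 (Pdk4), with a median of 0.03, which is also the median of all genes. Below 0 were 13 of 34 members, beside 39.7% of all genes, and 18 of 34 when libraries were scaled by median ratios. The 95% interval was -0.22 to 0.11 for Cpt1a, -0.21 to 0.55 for Ucp3, -0.16 to 0.42 for Ucp2, -0.41 to 0.14 for Plin5 and -0.30 to 1.34 for Pdk4. The upper bound for Ucp3 is below the 1.89 by which mdx lay under WT, while that for Pdk4 is close to the 1.57 by which mdx lay under WT. Beta-oxidation enzymes were above 0 in 14 of 17, with a median of 0.05, and mdx 1 was the lowest mdx library in all 17 of them.

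**Figure D3:**
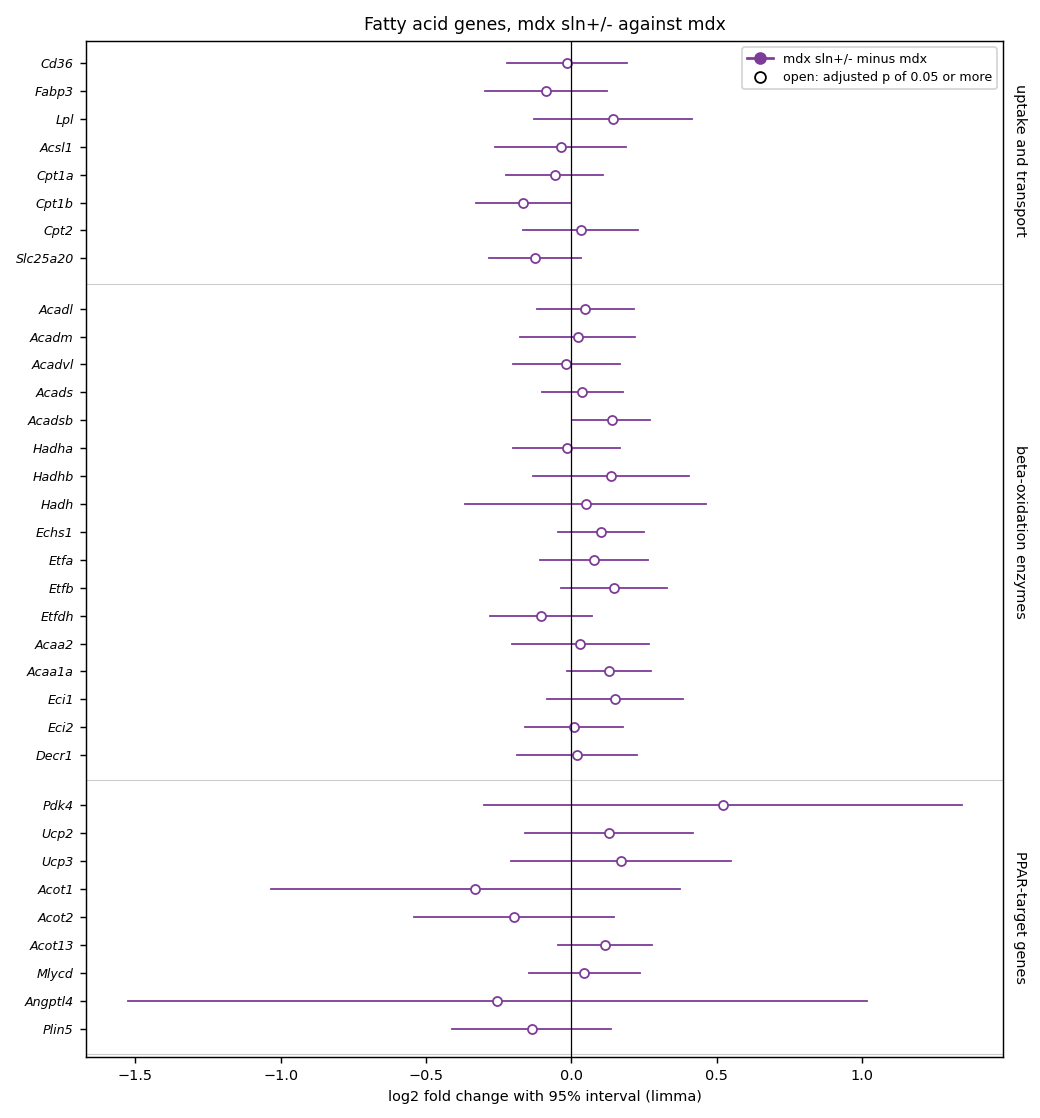
Log2 fold changes of the 34 fatty acid genes in mdx sln+/- minus mdx on the x axis, with 1 gene per line on the y axis, and bars for the 95% interval of the limma fit. All points are open, that is with an adjusted p of 0.05 or more, and the widest intervals are those of Angptl4, Pdk4 and Acot1.

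The libraries of a group differed among themselves in a way that ran across the members. WT 2 was the higher of the WT libraries in all 8 genes of uptake and transport and in all 9 PPAR-target genes, and in 11 of 17 beta-oxidation enzymes, while it was the higher in 45.9% of all genes. The gap between the WT libraries exceeded the difference between mdx and WT in 20 of 34 members, 12 of them beta-oxidation enzymes. In mdx, mdx 1 was the lowest library in 5 of 8 uptake genes and in all 17 enzymes, where 44.2% of all genes had it lowest. The highest was mdx 3 in 20 of 34 members, beside 40.6% of all genes. Among the mdx sln+/- libraries, mdx sln+/- 2 was the lowest in 13 of 17 enzymes but the highest in 5 of 9 PPAR-target genes. Of all genes, 39.8% had it lowest and 35.6% had it highest. Because the deposited values tie mdx 2 and mdx sln+/- 2 to the mean of the other 4, the order of libraries within these groups is in part set by that earlier step.

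**Figure D4:**
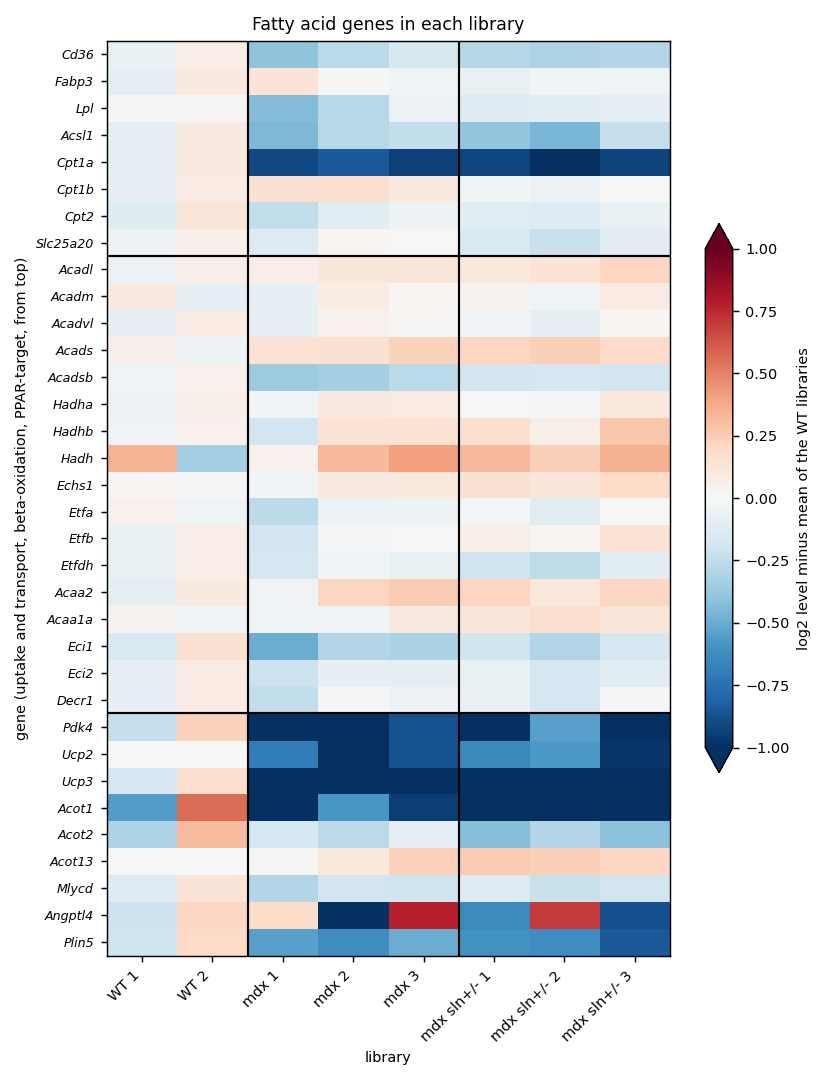
Level of each of the 34 fatty acid genes (y axis) in each of the 8 libraries (x axis) as the log2 difference from the mean of the WT libraries; the colour scale runs from -1 to 1 and stronger differences take the end colour. Cpt1a, Pdk4, Ucp2, Ucp3, Acot1 and Plin5 are blue in all mdx-bearing libraries, the beta-oxidation enzymes are mostly pale, and mdx 1 is the lowest mdx library in every enzyme.

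At the level of transcripts, the 34 members have 130 in the table, of which 125 were tested; 27 members have several and 7 have 1. In mdx against WT 3 transcripts rose and 10 fell, in 10 genes, which is 10.4% beside 8.29% of all transcripts. Against WT, 4 rose and 12 fell in mdx sln+/-, in 11 genes, 12.8% beside 10.1% of all. Between mdx sln+/- and mdx 0 passed by limma, as did 0% of all transcripts, with 9 of the members' transcripts and 2670 of all at an unadjusted p under 0.05. Without WT 2, 2 transcripts passed in mdx against WT and 4 in mdx sln+/- against WT, and the second number was 2 without mdx sln+/- 1 and 4 without mdx sln+/- 3. For the first, 8 passed without mdx 1 and 5 without mdx sln+/- 1.

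Cpt2, the carnitine palmitoyltransferase of the inner membrane, had transcripts that moved apart while the gene did not pass. Its main coding transcript, Cpt2-201, made up 94.8% of the gene's abundance in WT and differed by -0.13 ± 0.10 in mdx. Cpt2-203, also annotated as coding, stood at 0.97 and 0.89 in WT, 1.92, 2.44 and 2.19 in mdx, and 2.42, 1.98 and 2.32 in mdx sln+/-. All mdx-bearing libraries were above both WT libraries, and it rose by 1.25 ± 0.21 in mdx (adjusted p = 0.017) from 0.42% to 1.84% of the gene. Cpt2-206, annotated as a retained intron, fell by 0.77 ± 0.16 in mdx (adjusted p = 0.032). Both are minor products of the gene, and how reads were shared among overlapping transcripts is not given in the sources used here.

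The other 2 transcripts that rose in mdx are not the main coding ones. Etfa-202, a processed transcript of the flavoprotein's alpha subunit, rose by 0.93 ± 0.14 (adjusted p = 0.013) from 1.94% to 4.29% of its gene. Hadhb-208, a retained intron of the trifunctional protein's beta subunit, rose by 0.48 ± 0.08 (adjusted p = 0.019) from 7.75% to 10.6%. Among those that fell, Lpl-202, a retained intron, dropped by 0.36 ± 0.09 in mdx (adjusted p = 0.046) and made up 0.73% of Lpl in WT. Both coding transcripts of Plin5 were lower, Plin5-202 by the test in both comparisons (-0.63 and -0.78) and Plin5-201 in mdx sln+/- (-0.51 ± 0.13, adjusted p = 0.046) but not in mdx (-0.39 ± 0.13, adjusted p = 0.099). The 3 called transcripts of Ucp2 (Ucp2-202, Ucp2-207 and Ucp2-210) fell by 0.83 to 0.87 in mdx. Ucp3-201, which carried 98.4% of Ucp3 in WT, fell by 1.90 ± 0.18 (adjusted p = 0.0035). For Pdk4 the coding transcript Pdk4-201, with 99.3% of the gene, just missed the test in mdx (-1.57 ± 0.40, adjusted p = 0.052), while the retained intron Pdk4-202 passed it (-1.48 ± 0.32, adjusted p = 0.034). Cd36-201 and Cd36-202, coding transcripts with 1.03% and 16.4% of Cd36 in WT, fell in mdx sln+/- by 0.93 ± 0.23 and 0.49 ± 0.12 (adjusted p = 0.043 and 0.038). They missed the test in mdx, at an adjusted p of 0.062 each. The main transcript Cd36-206, with 51.7% of the gene in WT, differed by -0.22 ± 0.12 in mdx sln+/- and did not pass (adjusted p = 0.25).

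Around the members, 102 further genes of fatty acid metabolism were listed, of which 99 were measured and 98 tested. In mdx against WT 5 of them rose and 14 fell, 19.4% beside 15.1% of all genes, with a median of -0.08. For mdx sln+/- against WT 5 rose and 12 fell, 17.3% beside 15.9% of all genes, with a median of -0.04, and with median-ratio scaling 3 rose and 15 fell. Between mdx sln+/- and mdx 0 passed by limma, with 11 at an unadjusted p under 0.05. Leaving out WT 2 brought the counts to 7 and 5, leaving out mdx 1 to 10 in mdx against WT, leaving out mdx sln+/- 1 to 10 and 4, and leaving out mdx sln+/- 3 to 8 in mdx sln+/- against WT.

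Among 19 regulators 4 fell in mdx, namely Ppara, Ppargc1a, Nrip1 and Sirt1, and 0 rose. That is 21.1%, beside 6.94% of all genes called lower. In mdx sln+/- against WT 2 of the 19 fell, Ppara and Ppargc1a, 10.5% beside 6.5% of all genes. Nrip1 and Sirt1 were named after their values were seen. Ppara, which encodes PPAR-alpha, stood at 5.46 and 5.89 in WT, 4.76, 4.67 and 4.66 in mdx, and 4.50, 4.63 and 4.70 in mdx sln+/-. The 6 mdx-bearing libraries were all below both WT libraries. It fell by 0.98 ± 0.14 in mdx (adjusted p = 0.0079) and by 1.07 ± 0.14 in mdx sln+/- (adjusted p = 0.0064). Ppargc1a, which encodes PGC-1alpha and is also on the brown adipocyte list, stood at 7.41 and 8.17 in WT, 6.17, 5.92 and 6.30 in mdx, and 6.32, 6.57 and 6.24 in mdx sln+/-. The WT libraries were 0.76 apart and still above all others. Ppargc1a fell by 1.65 ± 0.24 in mdx (adjusted p = 0.0080) and by 1.41 ± 0.24 in mdx sln+/- (adjusted p = 0.012). Leaving out mdx sln+/- 1 or mdx sln+/- 3 ended the latter call (adjusted p = 0.060 and 0.051). The calls of Ppara and Ppargc1a in mdx each held under 23 of 25 alternatives. Both were lost with plain-named libraries only, and without WT 2 and mdx sln+/- 3 together. Esrra, Rxra and Ppard, other nuclear receptors that act on these genes, differed from WT by 0.06, -0.02 and -0.14 in mdx and did not pass; they were named after their values were seen.

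Outside the regulators, the called genes lay in several lists. Of 13 peroxisomal genes 1 rose and 4 fell in mdx, 38.5% beside 15.1% of all genes called in either direction. The 4 were Ehhadh, the bifunctional enzyme of peroxisomal beta-oxidation (-0.83 ± 0.10), Abcd2 and Abcd3, which carry fatty acyl-CoA into peroxisomes (-0.66 ± 0.14 and -0.47 ± 0.10), and Cat, catalase (-0.44 ± 0.08). Among 20 further genes of oxidation, Mut, the methylmalonyl-CoA mutase that feeds propionate from odd chains into the citrate cycle, fell by 0.85 ± 0.12, and Mecr, the enoyl reductase of mitochondrial fatty acid synthesis, rose by 0.79 ± 0.10. Acot11 and Acot7, thioesterases, moved in opposite directions, at -1.09 ± 0.11 and 0.48 ± 0.06. Of 16 genes of lipid storage 1 rose and 3 fell, 25.0% beside the same 15.1%. Among those that fell were Lpin1, a phosphatidate phosphatase that also acts as a coactivator of PPAR-alpha (-0.77 ± 0.13), and Plin4, a coat protein of lipid droplets (-1.18 ± 0.24). Plin4 is also on the adipocyte list, whose 3 measured genes summed to 9.89 to 9.94 in WT, 9.24 to 9.51 in mdx and 9.21 to 9.59 in mdx sln+/-. In mdx sln+/- against WT these 10 genes differed by -0.54 (Ehhadh), -0.56 (Abcd2), -0.49 (Abcd3), -0.46 (Cat), -0.70 (Mut), 0.85 (Mecr), -0.93 (Acot11), 0.49 (Acot7), -0.68 (Lpin1) and -1.19 (Plin4), each with an adjusted p under 0.05. Without WT 2 the calls of Plin4, Lpin1, Cat, Abcd2 and Abcd3 were lost in both comparisons, with adjusted p of 0.065 to 0.122, and those of Ehhadh and Mut in mdx sln+/- against WT (0.073 and 0.066). Other single libraries ended further calls in mdx against WT: Plin4 without mdx 1, Abcd2 without WT 1 or mdx sln+/- 1, and Abcd3 without WT 1, mdx 1, mdx 3 or mdx sln+/- 1, with adjusted p of 0.051 to 0.077. In the comparison of mdx sln+/- with WT, Plin4, Lpin1, Ehhadh, Cat and Abcd2 were lost without mdx sln+/- 1 or mdx sln+/- 3, Mut and Abcd3 without mdx sln+/- 1, Abcd2 and Abcd3 without WT 1, and Abcd2 without mdx 2 or mdx sln+/- 2, with adjusted p of 0.060 to 0.128. Uptake and activation genes outside the members gave 1 rise and 1 fall of 16 in mdx, 12.5% beside 15.1% of all genes. They were Acsl5 (0.51 ± 0.11) and Acsl4 (-0.53 ± 0.12), acyl-CoA synthetases of other substrate preference, named after their values were seen.

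**Figure D5:**
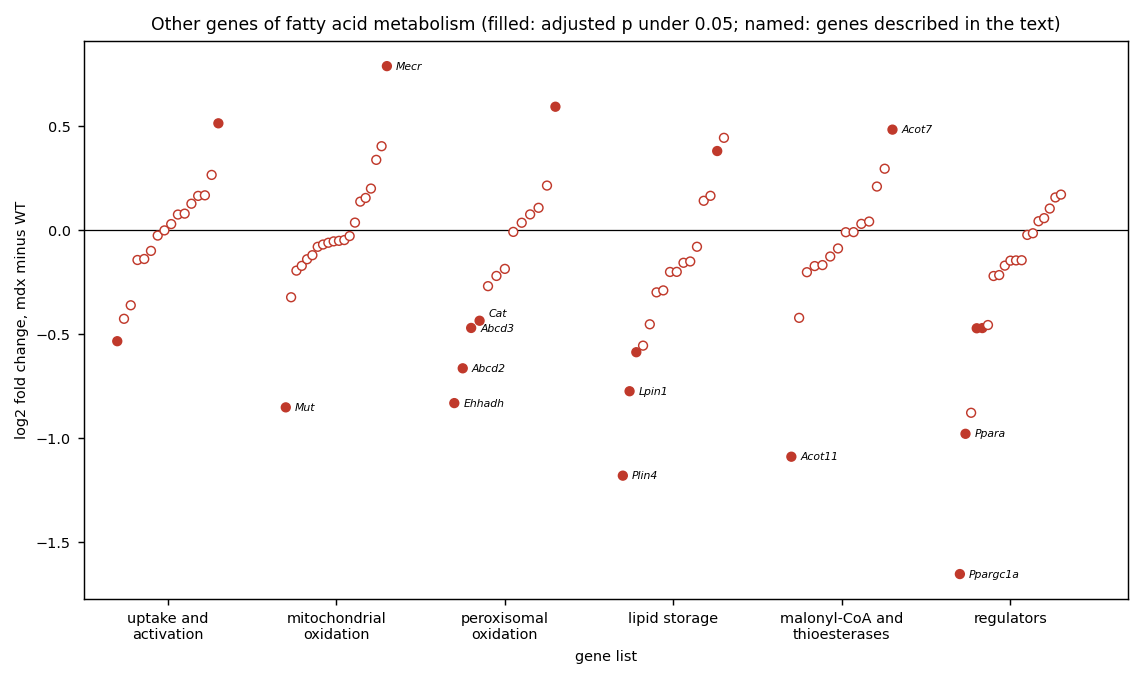
Log2 fold changes in mdx minus WT (y axis) of the 98 further genes of fatty acid metabolism that were tested, in 6 lists (x axis), sorted within each list; filled points have an adjusted p under 0.05. The filled points are 5 above 0 and 14 below it, with Ppargc1a lowest and Mecr highest.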

How the data were processed

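Paired-end RNA sequencing of mouse left ventricle gave 8 libraries. The submitters' processing notes name the build mm10, the aligner STAR 2.6.1, Partek and limma. The authors deposited log2 values of 33027 transcripts, with an r1 and an r2 column per library, per the file headers. The reading of these as log2(normalized abundance + 1) is an inference from their range, and the normalization and the use of strand are not given in the sources used here. Each of the 16 value columns belongs to a library, and 0 were left unmapped. The r1 and r2 values correlated at 0.981 to 0.987 and were averaged, turned to linear values, summed per gene and expressed as log2(sum + 1). Tested genes reached a summed value of 1 or more in 2 or more libraries, and 795 did not.

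The 2 libraries mdx 2 and mdx sln+/- 2 have, in each transcript, the same mean as the other 4 mdx-bearing libraries, to within 5.13e-05, while other such contrasts had an SD of 0.127 to 0.199. All 8 libraries were fitted in 1 model per gene with limma 3.58.1 in R 4.3.3 (moderated test, variance prior following mean level), with the group and a term for that contrast, which leaves 4 residual degrees of freedom. The p-values were adjusted over all genes or transcripts by Benjamini-Hochberg, with a threshold of 0.05. SEs and 95% intervals are those of this fit. The fit was tested on simulated data with known changes of 1 and 2 log2 units. Of 100 genes changed by 1 unit it recovered 77 in mdx against WT, 83 in mdx sln+/- against mdx and 81 in mdx sln+/- against WT. At 2 units it recovered 99, 100 and 98 in the same order. It called 7, 9 and 8 unchanged genes, where groups alone called 42, 38 and 42. Smaller changes were not simulated.

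The members and gene lists were chosen with earlier results of these data known. The text names, with each library's value, every member called in any comparison and the pairs Cpt1a and Cpt1b, Ucp2 and Ucp3, Acot1 and Acot2, and, of the other pathway genes, the 12 called with the smallest adjusted p in mdx against WT, which include Ppara and Ppargc1a. Members beyond these, Dmd and Ddx3y were given as values. Positions of genes come from GENCODE M21 (GRCm38/mm10) and promoter windows from RefSeq (GRCm38.p6). Python 3.11.15, numpy 2.4.6, pandas 2.3.3, scipy 1.17.1 and matplotlib 3.10.9 were used. Alternatives tried were the group alone, a replicate block, the style of the library names as a term, subsets of libraries, each library left out in turn, upper-quartile or median-ratio scaling, the filter dropped or set to a mean of at least 4, pseudocounts of 0.5 and 4, r1 or r2 alone, the highest transcript per gene, no trend in the prior and, chosen after seeing the data, coding transcripts only. Sln levels are not analysed here.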

Additional observations from a re-analysis of the deposited data

How the results depend on the processing

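With 2 WT libraries and depth unknown, the counts of calls depend on the model and the libraries used. They are given for members, other pathway genes and member transcripts, first in mdx against WT (6, 19 and 13) and then in mdx sln+/- against WT (4, 17 and 16). With groups alone 10 members and 27 transcripts passed in the first, and 10 members and 35 transcripts in the second; that fit counts a degree of freedom the removed contrast had used. The style of the library names (indexed or plain) is partly confounded with the differences from WT, as both WT libraries are plain-named. Plain-named libraries alone leave 1 library in each mdx group. With the style as a term, the counts were 3, 7 and 5 in the first, and 6 other genes and 7 transcripts in the second. With plain-named libraries only they were 2, 0 and 0 in the first, and 3 other genes and 1 transcript in the second. Without WT 2 and mdx sln+/- 3 they were 2, 1 and 1, and then 0, 0 and 0. With only the groups compared, where the term fits mdx 2 or mdx sln+/- 2 exactly and so drops it, they were 3, 9 and 3 in the first. The r1 columns gave 6 transcripts and the r2 columns 8 in the first, and 7 and 9 in the second. Leaving out 1 library at a time gave 2 to 8, 7 to 17 and 2 to 11 in the first and 2 to 6, 4 to 18 and 2 to 18 in the second; without mdx 2 or mdx sln+/- 2 the term fits the other of the pair exactly. The cause of these changes was not tested, beyond the smaller number of libraries. The share of all genes or transcripts passing under each alternative is not given here. The changes can therefore not be read as particular to these sets. In mdx sln+/- against mdx 0 passed in each of the 3 sets under every alternative run. Scaling, the filter, the pseudocount, the prior, coding transcripts and the highest transcript per gene kept every count within 1.5 times. Of 3447 single-gene values under an alternative, 0 reversed a called direction, 144 called values no longer passed and 31 newly passed.

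With the replicate number as a block, 8 members, 23 other genes and 15 transcripts passed in mdx against WT, 6, 16 and 14 in mdx sln+/- against WT, and 0 in each set in mdx sln+/- against mdx. Deviations of same-numbered libraries from their group means correlated at -0.996 to 0.18. The lowest value, of mdx 2 and mdx sln+/- 2, is set by the removed contrast, which also constrains the other mdx-bearing libraries. With 2 WT libraries, the deviations of WT 1 and WT 2 mirror each other. Whether the numbers pair the libraries cannot be told from these values.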
